A study of Homo sapiens with 2 samples.

Results

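Heat shock proteins and J-domain proteins are the main chaperone families of the cell, and 83 of their genes among 24124 in the table were followed in SAS cells with and without added ASC. Members were found by gene name. The name patterns covered the heat shock protein series (HSPA, HSPB, HSPD, HSPE, HSPH and HSP90), the DNAJA, DNAJB and DNAJC series, the BAG genes, the subunits of the chaperonin CCT with TCP1, and the factors HSF1 and HSF2. A further 33 matching names that end in P, or in P and digits, were left out as pseudogenes, while HSPA7, which GENCODE also calls a pseudogene, has no such name and was kept. CRYAB, which the rule also names, was not analysed here.

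SAS is an established human oral cancer line. The ASC cells had been made stable for the vector pLKO.AS2_ASC and the control cells for pLKO.AS2 without ASC, a lentiviral backbone, here with a neo marker. The genotype label of the ASC cells reads as overexpression of SAS, which is the name of the line, so the vector label was used. Both were kept in medium with serum, G418 and puromycin, and the comparison asks which transcripts differ when ASC, an inflammasome adaptor, is added. The labels do not tell whether either line is a clone or a pool. Poly(A) RNA of each was sequenced as a single library, and no difference given here could be checked against replicates.

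HSP70 proteins bind unfolded stretches of other proteins in cycles of ATP hydrolysis. J-domain proteins start that hydrolysis and hand over clients, while HSP110 and BAG proteins release the nucleotide. HSP90, the small heat shock proteins, the ring-shaped chaperonins HSP60 and CCT, and dedicated copies of HSP70 and HSP90 in the endoplasmic reticulum (ER) and mitochondria complete the network. In the cytosol, HSF1 switches on chaperone genes under heat and protein damage by binding inverted repeats of the letters GAA, called heat shock elements. Genes of ER chaperones answer instead to the unfolded protein response, through ER stress elements in their promoters.

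PYCARD, the gene of ASC, stood at 266.5 RPKM in the ASC library and at 1.36 RPKM in the control library, the direction its label gives. RPKM divides reads by transcript length and library size, so it compares levels between genes per length. The ASC library had 31426491 listed reads and the control library 31289581. All 7 squamous epithelial markers examined were present, the lowest being KRT6A at 8.13 RPKM in the ASC library and 11.5 RPKM in the control library. Markers of blood, vessel, fibroblast and muscle cells (PTPRC, PECAM1, COL1A1, COL1A2 and MYH11) were at or under 0.353 RPKM in both. In bulk RNA, fewer cells with a transcript and less of it per cell cannot be told apart.

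Gene levels are sums of RPKM over transcripts. Of the 83 members, 72 reached 1 RPKM in either library and were compared. The other 11 were at most at 0.978 RPKM: HSPA2, HSPA1L, HSPA6, HSPA7, HSPB6, HSPB9, CCT6B, DNAJB5, DNAJB13, DNAJC12 and DNAJC28. Ratios are given as log2(RPKM + 1) in the ASC library minus the same in the control library, a scale on which low genes look closer together than they are. The compared members were split evenly, with 35 of 72 below 0, against 48.0% of all 12471 genes compared. Their median log2 ratio was 0.02, against 0.01 for all genes. At least 1.5-fold lower in the ASC library were 7 members, or 9.72% of those compared, against 1.81% of all genes. At least 1.5-fold higher was 1 member, against 2.38% of all genes.

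All but 1 of the 7 encode cytosolic chaperones of the HSP70, HSP110 and small heat shock protein families: HSPA1A, HSPA1B, HSPH1, HSPA4L, HSPB1 and HSPB8. The remaining 1 was HSPE1 of the mitochondrial chaperonin. HSPA1A was the only member at least 2-fold lower, against 0.265% of all genes, and the J-protein gene DNAJC6 was the only member at least 2-fold higher, against 0.617% of all genes. HSPB8 joined HSPA1A with a pseudocount of 0.1, and no member was 2-fold lower once HSPA1A and HSPA1B were summed as 1 gene.

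**Figure D1:**
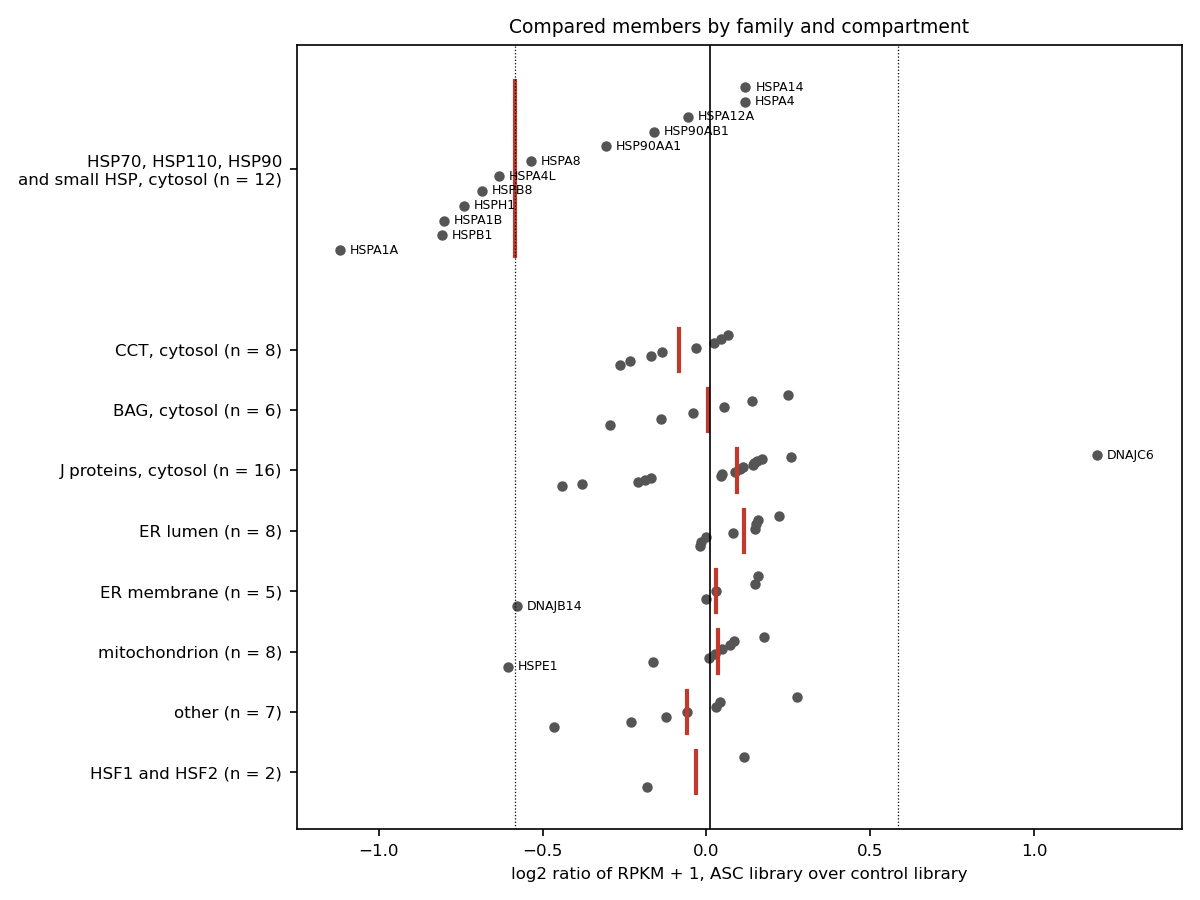
Log2 ratio of RPKM + 1, ASC library over control library, for the 72 compared members by family and compartment. Each point is a gene, red bars are group medians, the solid line is the median of all genes and dotted lines mark 1.5-fold. Most cytosolic HSP70, HSP110, HSP90 and small heat shock protein genes lie to the left, while the ER lumen genes lie between -0.02 and 0.22.

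Over all genes compared, 48.0% lay below 0, 1.81% were at least 1.5-fold lower and 2.38% at least 1.5-fold higher. By compartment, the 42 compared genes of the cytosol and nucleus had a median log2 ratio of -0.05, with 23 below 0 and 6 at least 1.5-fold lower. The 8 genes of the ER lumen had a median of 0.11, with 3 below 0 and none past 1.5-fold in either direction. The 8 mitochondrial genes had a median of 0.04, with 2 below 0 and 1 at least 1.5-fold lower. The RPKM sum over all 24124 genes was 2.04% lower in the ASC library. All 50 cytosolic members in the table summed to 5051 RPKM in the ASC library and 5843 RPKM in the control library, 13.6% lower. The 8 ER lumen genes summed to 725 RPKM in the ASC library and 691 RPKM in the control library. The 8 mitochondrial genes summed to 924.2 RPKM in the ASC library and 1040.0 RPKM in the control library.

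Within the cytosol the families parted. Of 12 compared HSP70, HSP110, HSP90 and small heat shock protein genes, 10 lay below 0, 6 were at least 1.5-fold lower, and the median was -0.58. This grouping was made after the values were seen. Over all genes compared, 48.0% lay below 0 and 1.81% were at least 1.5-fold lower. The 30 other compared cytosolic genes, J proteins, BAG proteins and CCT subunits, had a median of 0.04, with 13 below 0 and none at least 1.5-fold lower. Summed levels were 2340 RPKM in the ASC library and 3054 RPKM in the control library for the first group, and 2711 RPKM in the ASC library and 2789 RPKM in the control library for the second.

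Promoters are shown here because the lower genes include classical heat shock genes. The stretches below, upstream of the RefSeq start in GRCh38, carry the matches in capitals. In HSPA8, HSP90AA1 and HSP90B1 the match also lies within an exon of the same gene in GENCODE. The capitals mark the core GAANNTTC of a heat shock element in the first 6, and the ER stress element, CCAAT and CCACG with 9 bases between them, or its reverse complement, in the last 2. Each reads 5′ to 3′ on the strand of its gene.
HSPA1A: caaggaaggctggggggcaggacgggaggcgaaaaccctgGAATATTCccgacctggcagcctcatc
HSPA1B: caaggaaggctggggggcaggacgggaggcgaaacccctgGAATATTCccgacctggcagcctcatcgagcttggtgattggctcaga
HSPB1: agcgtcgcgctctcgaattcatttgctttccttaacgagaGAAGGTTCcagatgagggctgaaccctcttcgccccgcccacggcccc
HSPA8: ggccccttctgGAAGGTTCtaagatagggt
HSP90AA1: gggttcttccgGAAGGTTCgggaggcttct
DNAJB1: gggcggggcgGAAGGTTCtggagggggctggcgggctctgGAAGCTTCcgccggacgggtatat
HSPA5: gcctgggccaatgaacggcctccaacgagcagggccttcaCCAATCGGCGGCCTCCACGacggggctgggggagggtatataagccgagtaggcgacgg
HSP90B1: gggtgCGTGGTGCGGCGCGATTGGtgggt

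These stretches lie at chr6:31815397-31815463 on the plus strand for HSPA1A, chr6:31827593-31827680 on the plus strand for HSPA1B and chr7:76302451-76302538 on the plus strand for HSPB1. Those of HSPA8 and HSP90AA1 lie at chr11:123062168-123062197 and chr14:102087109-102087138, both on the minus strand. DNAJB1 is at chr19:14518421-14518484 on the minus strand, HSPA5 at chr9:125241351-125241449 on the minus strand and HSP90B1 at chr12:103930316-103930344 on the plus strand. The core begins 106 bases before the start in HSPA1A, 105 in HSPA1B and 182 in HSPB1. Over 249 aligned bases upstream of the start, HSPA1A and HSPA1B differ at 14, or 94.4% equal.

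Promoter windows, from 250 bases before to 50 after the start, were found for 64 of the 72 compared members. The core GAANNTTC, which reads the same on both strands, was in 16 of these 64, or 25.0%, and in 6.45% of the 9002 compared genes with a window. Of the 16 with a core, 13 lay below 0 and 4 were at least 1.5-fold lower, with a median log2 ratio of -0.18. These 4 include the near copies HSPA1A and HSPA1B, whose reads are not safely split. They also include HSPB8, at only 0.964 RPKM in the ASC library and 2.16 RPKM in the control library. Of the 48 without a core, 18 lay below 0 and 3 were at least 1.5-fold lower, with a median of 0.04. Among compared genes that are no member, the 565 with a core had a median of -0.02, with 52.9% below 0, and the 8373 without one a median of 0.02, with 46.5% below 0. The 3 lower members without a core were HSPH1, HSPA4L and HSPE1, so a match in this window and a lower level did not always go together. HSPE1 lies head to head with HSPD1, which holds a core 240 bases before its start. Windows were set per gene, and that of HSPE1 held no core, so the HSPD1 match does not lie whole within it. Where that match lies beyond the HSPE1 window was not tested. The 3 genes with a core above 0 were CCT2, DNAJB6 and DNAJC6, and the DNAJC6 core lies after the start.

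The stricter pattern of 3 units, the core followed after any 2 bases by another GAA, was sought on both strands and always holds the core. It was in 6 compared members and in 0.455% of compared genes. Those 6 were HSPA8, HSP90AA1, DNAJA1, HSPD1, HSP90AB1 and DNAJB6, and all but DNAJB6 lay below 0. The DNAJA1 match of 3 units lies after the start. None of the 6 was at least 1.5-fold lower, while 7 of the 58 compared members without this pattern were. Among the 8938 compared genes with a window that are no member, 35 held this pattern. Their median log2 ratio was -0.11, with 26 of 35 below 0, and 1 of them was at least 1.5-fold lower. The 8903 without it had a median of 0.02, with 46.8% below 0. The ER stress element was in 2 compared members, HSPA5 and HSP90B1, and in 0.178% of compared genes. Among compared genes that are no member, 14 held it, with a median log2 ratio of -0.09 and 64.3% below 0. The 8924 without it had a median of 0.02, with 46.9% below 0. A shift below 0 was thus not particular to the heat shock patterns. A match describes letters only and does not show that a factor binds there.

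**Figure D2:**
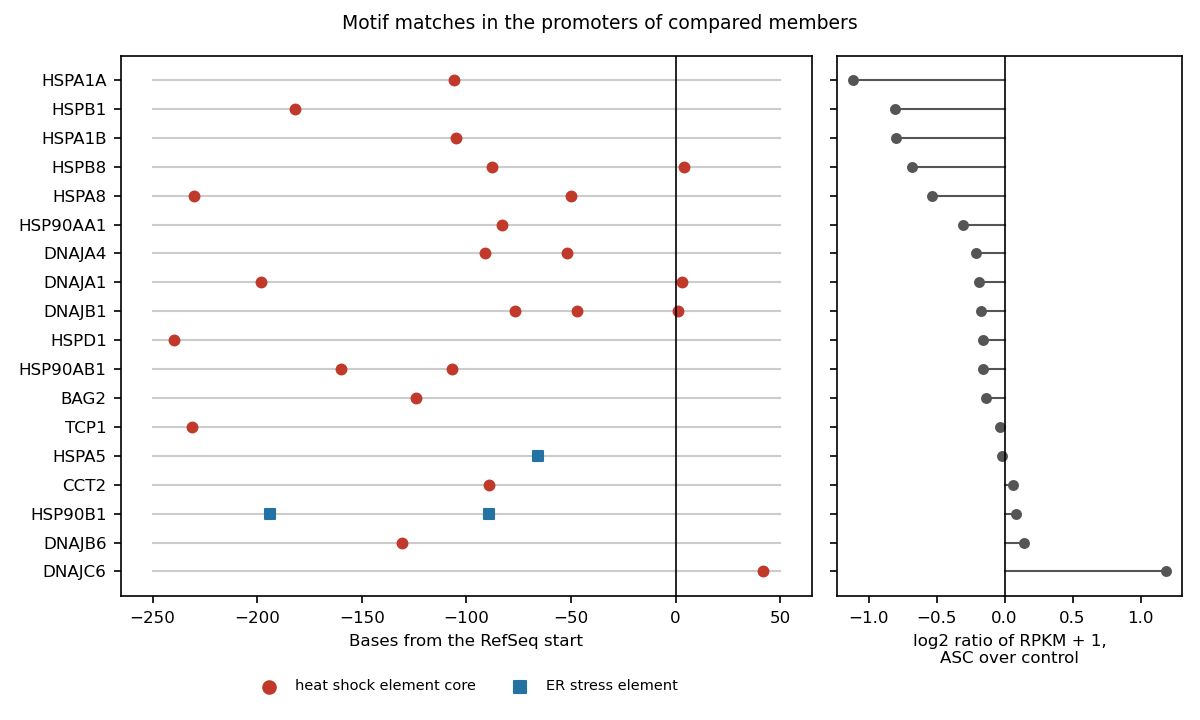
Left, position of the first base of each motif match, in bases from the RefSeq start, in the promoters of compared members. Right, log2 ratio of RPKM + 1, ASC library over control library, for the same genes. Genes run from the smallest ratio, HSPA1A at -1.12, to the largest, DNAJC6 at 1.19, and 13 of the 16 genes with a heat shock element core lie below 0.

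The factors themselves differed little. HSF1, the main heat shock factor, stood at 47.1 RPKM in the ASC library and 53.5 RPKM in the control library, a log2 ratio of -0.18. HSF2, a relative that can pair with it, stood at 15.8 RPKM in the ASC library and 14.5 RPKM in the control library, a log2 ratio of 0.12. Neither passed 1.5-fold. HSF1 is controlled largely at the protein level, which these data do not measure.

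HSPA1A, an inducible HSP70, had the smallest ratio of all members. It stood at 41.8 RPKM in the ASC library and at 91.9 RPKM in the control library, a log2 ratio of -1.12. Its estimated reads were 3687 in ASC cells and 8094 in control cells, a log2 ratio of reads scaled to depth of -1.14 with a 95% interval of -1.20 to -1.08. This exact interval, like those below, covers counting error only. HSPA1B, its near copy, stood at 42.3 RPKM in the ASC library and 74.5 RPKM in the control library, a log2 ratio of -0.80. Both genes lie on chromosome 6, HSPA1A from 31815464 to 31817946 and HSPA1B from 31827735 to 31830255, and encode proteins of 641 residues that are nearly the same. How reads were split between them is uncertain, so their sum is the safer value: 84.1 RPKM in the ASC library and 166.4 RPKM in the control library, 50.6% of the control level.

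HSPA8, the constitutive HSC70 and the most abundant HSP70, stood at 380.5 RPKM in the ASC library and 551.9 RPKM in the control library. Its log2 ratio was -0.54, just short of 1.5-fold, and its interval for reads, from -0.59 to -0.54, was narrow at this depth. In RPKM this gap was larger than that of HSPA1A and HSPA1B together. Of 13 HSPA8 transcripts with at least 1 RPKM in either library, 11 lay below 0. HSPA14 of the ribosome-associated complex stood at 13.6 RPKM in the ASC library and 12.5 RPKM in the control library. The distant relative HSPA12A was low, at 1.66 RPKM in the ASC library and 1.77 RPKM in the control library.

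The RPKM sum over all genes was 2.04% lower in the ASC library. Cytosolic HSP70 members summed to 480.9 RPKM in the ASC library and 734.1 RPKM in the control library, 34.5% lower. Those under 1 RPKM in both libraries were the germ cell forms HSPA2 and HSPA1L and the strictly heat-inducible HSPA6. HSPA6 had 0 reads in the ASC library and 7.60 estimated reads in the control library. The upper end of its 95% interval for the log2 ratio of reads was -0.78, and reads this few can come from its relatives.

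**Figure D3:**
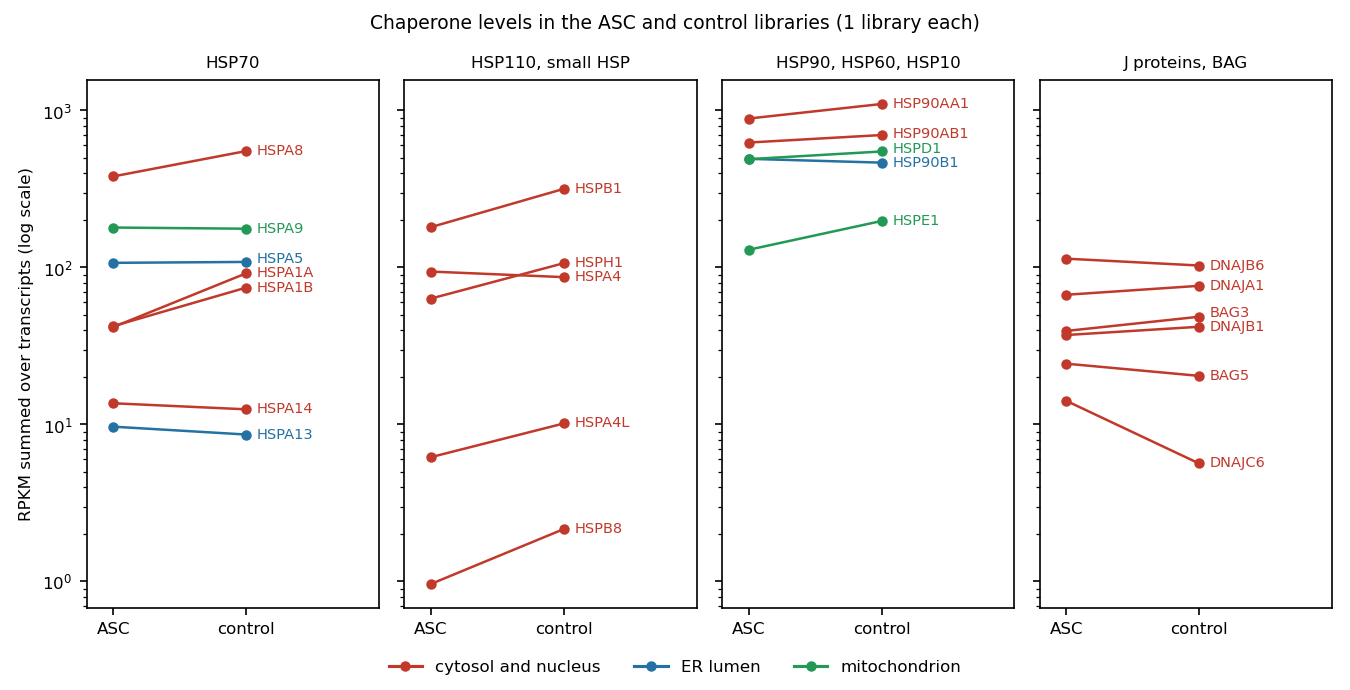
RPKM summed over transcripts, on a log scale, in the ASC and control libraries for 23 members by family. Lines join the values of a gene and colours give the compartment. HSPA8, HSPA1A, HSPA1B, HSPH1 and HSPB1 are lower in the ASC library, while HSPA9, HSPA5 and HSP90B1 run almost level and DNAJC6 is higher.

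In RPKM summed over transcripts, exchange factors of the HSP110 family went separate ways. HSPH1, the heat-inducible HSP105, stood at 63.4 RPKM in the ASC library and 106.5 RPKM in the control library, a log2 ratio of -0.74 and an interval for reads of -0.78 to -0.69. All 7 of its transcripts with at least 1 RPKM lay below 0, from -0.91 to -0.48. HSPA4L stood at 6.19 RPKM in the ASC library and 10.2 RPKM in the control library, a log2 ratio of -0.63, but -0.32 when the highest transcript of each library replaced the sum and -0.52 with a pseudocount of 3, both short of 1.5-fold. HSPA4, the constitutive form, stood at 94.2 RPKM in the ASC library and 86.8 RPKM in the control library, a log2 ratio of 0.12, or 0.05 in reads scaled to depth only. ENST00000304858.6, its transcript that encodes 840 residues, stood at 26.6 RPKM in the ASC library and 27.8 RPKM in the control library. That transcript had a log2 ratio of -0.06, while the 3 other HSPA4 transcripts with at least 1 RPKM lay above 0. By these sums HSPH1 was below HSPA4 in the ASC library and above it in the control library.

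The small heat shock proteins hold unfolding proteins without using ATP. HSPB1, which encodes HSP27 and is abundant in squamous epithelium, stood at 180.8 RPKM in the ASC library and 316.9 RPKM in the control library. Its log2 ratio was -0.81, with an interval for reads of -0.85 to -0.76, and its 3 transcripts with at least 1 RPKM all lay below 0. HSPB8, which works with BAG3 in selective autophagy, was low, at 0.964 RPKM in the ASC library and 2.16 RPKM in the control library. With 74 reads in the ASC library and 157 reads in the control library, its interval for reads was wide, from -1.51 to -0.68. On the log2 scale its ratio was -0.68, but -0.38 with a pseudocount of 3, short of 1.5-fold. HSPB6 and HSPB9 had fewer than 10 reads in either library.

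HSP90, which matures kinases and steroid receptors, gave the most abundant member. HSP90AA1, the inducible alpha form, stood at 888.6 RPKM in the ASC library and at 1100.0 RPKM in the control library, a log2 ratio of -0.31. All 7 of its transcripts with at least 1 RPKM lay below 0. HSP90AB1, the constitutive beta form, stood at 624.8 RPKM in the ASC library and 697.7 RPKM in the control library, a log2 ratio of -0.16. Neither reached 1.5-fold. The ER form HSP90B1, also called GRP94, stood at 492.1 RPKM in the ASC library and 465.4 RPKM in the control library.

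J proteins, which choose clients for HSP70, were mostly level or slightly higher in the ASC library. Of 36 compared DNAJ genes, 25 lay above 0, against 52.0% of all genes, with a median of 0.06. With the pseudocount of 1, none was at least 1.5-fold lower and 1 was at least 1.5-fold higher. DNAJB14 or DNAJB4 passed 1.5-fold lower under other settings, given with these genes. The heat-inducible DNAJB1, also called HSP40, stood at 37.1 RPKM in the ASC library and 41.9 RPKM in the control library, a log2 ratio of -0.17. Its promoter holds 2 cores in the stretch printed above, and its ratio was far nearer 0 than that of HSPA1A. DNAJA1, the farnesylated partner of HSC70, stood at 67.0 RPKM in the ASC library and 76.4 RPKM in the control library.

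Among J proteins, DNAJB14 and DNAJB4 had the smallest ratios, and their transcripts differed. DNAJB14, a membrane protein of the ER, stood at 7.48 RPKM in the ASC library and 11.7 RPKM in the control library, a log2 ratio of -0.58. With the pseudocount of 1 this was just short of 1.5-fold lower, although the plain RPKM values were 1.56-fold apart. It passed 1.5-fold at -0.63 with a pseudocount of 0.1, at -0.59 with median centring and at -0.59 with TMM scaling, but came to -0.36 in reads scaled to depth only and to -0.32 with the highest transcript. DNAJB4 stood at 5.38 RPKM in the ASC library and 7.65 RPKM in the control library, a log2 ratio of -0.44, or -0.87 with the highest transcript. The gap lay in ENST00000487931.1, a transcript with no annotated coding sequence, at 2.29 RPKM in the ASC library and 5.0 RPKM in the control library. The DNAJB4 transcript that encodes 337 residues stood at 1.54 RPKM in the ASC library and 1.67 RPKM in the control library. DNAJC2, the J protein of the ribosome-associated complex, had a log2 ratio of -0.38, but PMPCB and PSMC2 overlap it on the other strand, and the libraries do not mark strand.

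The log2 ratio was 0.26 in DNAJC17, 0.17 in DNAJA2 and 0.16 in both DNAJB12 and DNAJC1. DNAJC17 is crossed on the other strand by GCHFR and ZFYVE19, and of the 34 members chosen by rule 10 overlap another gene of at least 1 RPKM. DNAJC8, a nuclear J protein and the most abundant DNAJC gene, stood at 53.8 RPKM in the ASC library and 52.0 RPKM in the control library.

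DNAJC6 had the largest ratio of all members. It encodes auxilin, which brings HSC70 to clathrin-coated vesicles to strip their coat and is best known from neurons. It stood at 14.1 RPKM in the ASC library and 5.64 RPKM in the control library, 2.51-fold higher without a pseudocount. With the pseudocount of 1 its log2 ratio was 1.19. Estimated reads were 1959 in ASC cells and 753 in control cells, with an interval for the log2 ratio of reads of 1.25 to 1.5. All 3 of its transcripts with at least 1 RPKM were higher, among them ENST00000371069.4, which encodes 970 residues, at 8.41 RPKM in the ASC library and 3.10 RPKM in the control library. With a pseudocount of 3 the log2 ratio was 0.99, just under 2-fold. GAK, its broadly expressed relative, stood at 17.7 RPKM in the ASC library and 19.3 RPKM in the control library.

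DNAJB6, a suppressor of protein aggregation, showed a difference between its transcripts. Summed, it stood at 113.8 RPKM in the ASC library and 102.9 RPKM in the control library, a log2 ratio of 0.14. ENST00000429029.6, which encodes a short protein of 241 residues, stood at 61.3 RPKM in the ASC library and 45.2 RPKM in the control library, a log2 ratio of 0.43. ENST00000262177.8, which encodes the long protein of 326 residues, stood at 32.4 RPKM in the ASC library and 32.2 RPKM in the control library. The short form held 46.5% of DNAJB6 reads in ASC cells and 38.3% in control cells.

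**Figure D4:**
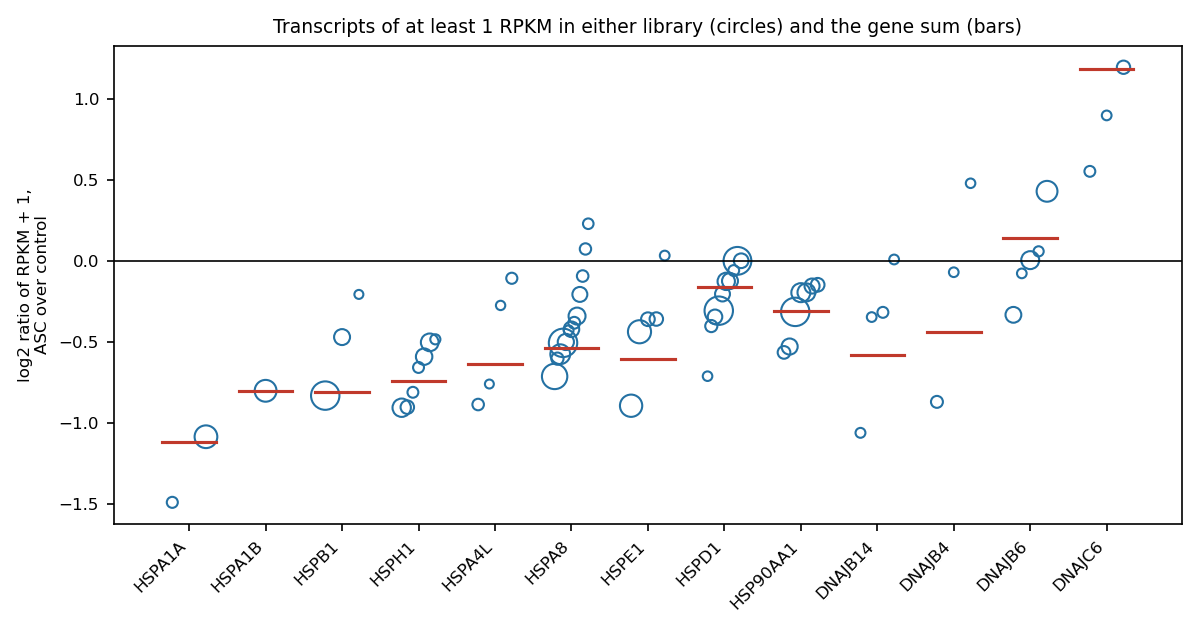
Log2 ratio of RPKM + 1, ASC library over control library, for transcripts with at least 1 RPKM in either library (circles, larger for higher RPKM) of 13 members. Red bars give the ratio of the gene sum. All transcripts of HSPA1A, HSPB1, HSPH1 and HSP90AA1 lie below 0, and those of DNAJC6 above 0, while DNAJB4 and DNAJB6 have transcripts on both sides.

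BAG proteins bind the ATPase domain of HSP70. Of 6, 3 lay below 0, against 48.0% of all genes, and 3 above, none past 1.5-fold. BAG3, a heat-inducible partner of HSPB8, stood at 39.4 RPKM in the ASC library and 48.6 RPKM in the control library, a log2 ratio of -0.29. BAG5 stood at 24.4 RPKM in the ASC library and 20.4 RPKM in the control library, a log2 ratio of 0.25, or 0.09 with the highest transcript. BAG6, which sorts tail-anchored proteins, was the most abundant, at 53.7 RPKM in the ASC library and 55.3 RPKM in the control library, a log2 ratio of -0.04, or -0.19 with the highest transcript.

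The chaperonin CCT folds actin and tubulin as a double ring of 8 kinds of subunit. The 8 compared genes had a median log2 ratio of -0.08, with 5 below 0, against 48.0% of all genes, and none past 1.5-fold. CCT7 stood at 227.8 RPKM in the ASC library and 273.9 RPKM in the control library, and CCT4 at 143.5 RPKM in the ASC library and 168.9 RPKM in the control library. At the other end CCT2 stood at 386.3 RPKM in the ASC library and 369.4 RPKM in the control library, and CCT5, the most abundant subunit gene, at 450.5 RPKM in the ASC library and 436.7 RPKM in the control library. The CCT5 ratio was 0.04, or 0.13 with the highest transcript. Genes of 1 complex thus ranged from -0.26 to 0.06. The testis form CCT6B was under 1 RPKM in both libraries.

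The 8 ER lumen members were close in the libraries. The 5 ER membrane members ranged more widely, from -0.58 in DNAJB14 to 0.16 in DNAJB12. HSPA5, which encodes the master ER chaperone BiP, stood at 107.0 RPKM in the ASC library and 108.5 RPKM in the control library, a log2 ratio of -0.02. Its luminal J proteins were also close, DNAJC10 at 41.1 RPKM in the ASC library and 41.2 RPKM in the control library and DNAJB11 at 44.9 RPKM in the ASC library and 40.4 RPKM in the control library. The largest ratio of the 8 was 0.22, in DNAJC3, a J protein induced under ER stress, at 8.75 RPKM in the ASC library and 7.37 RPKM in the control library.

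Mitochondrial chaperones were level except for the chaperonin. HSPA9, the mitochondrial HSP70 called mortalin, stood at 179.6 RPKM in the ASC library and 176.6 RPKM in the control library. HSPE1, the HSP10 lid of the chaperonin, stood at 129.6 RPKM in the ASC library and 197.7 RPKM in the control library, a log2 ratio of -0.61. This was short of 1.5-fold with the highest transcript, at -0.44, and in reads scaled to depth only, at -0.57. HSPD1, its HSP60 barrel, stood at 489.8 RPKM in the ASC library and 548.2 RPKM in the control library, a log2 ratio of -0.16, or -0.26 with the highest transcript of each library, which was not the same one in both. The genes lie head to head on chromosome 2, and annotated HSPD1 transcripts run across HSPE1 on the other strand, so without strand their reads cannot be fully told apart. Of 5 HSPE1 transcripts with at least 1 RPKM, 4 lay below 0, the lowest being ENST00000409468.1 at 43.6 RPKM in the ASC library and 81.8 RPKM in the control library. The HSPE1-MOB4 readthrough stood at 10.6 RPKM in the ASC library and 11.7 RPKM in the control library. The 5 mitochondrial J-protein genes all lay above 0, the largest ratio being 0.18 in DNAJC15, of the import motor.

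The name patterns also took in genes that are no chaperones. HSPG2 encodes perlecan, a proteoglycan of basement membranes, and stood at 9.33 RPKM in the ASC library and 13.3 RPKM in the control library, a log2 ratio of -0.47. HSPB11 encodes the ciliary transport protein IFT25 and stood at 24.6 RPKM in the ASC library and 25.7 RPKM in the control library. Without these and the DNAJC genes of no known chaperone compartment, 7 of 65 members were still at least 1.5-fold lower.

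Of 50 folding factors outside the name patterns, all compared, 27 lay below 0, against 48.0% of all genes, with a median of -0.03. None passed 1.5-fold, against 1.81% of all genes in the lower and 2.38% in the higher direction, shares that leave few to be found among 50. The 12 ER folding factors among them had a median of -0.03, with 8 below 0, while the 8 ER lumen members had 3 below 0. CALR, the lectin chaperone calreticulin, had the smallest ratio of the 12, at 170.0 RPKM in the ASC library and 206.3 RPKM in the control library, a log2 ratio of -0.28. Among HSP90 co-chaperones, CHORDC1 stood at 40.5 RPKM in the ASC library and 50.3 RPKM in the control library, and CDC37, which brings kinases to HSP90, at 120.5 RPKM in the ASC library and 148.6 RPKM in the control library. The prefoldin subunit PFDN5 had a log2 ratio of -0.35 and the mitochondrial protease HTRA2 one of -0.43. On the higher side, HYOU1, the ER relative of HSP110, stood at 34.6 RPKM in the ASC library and 26.9 RPKM in the control library. GRPEL2, an exchange factor of mitochondrial HSP70, had a log2 ratio of 0.34.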

How the data were processed

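RNA sequencing of 2 SAS libraries, 1 per group, was deposited as a table of 134092 transcripts. Its columns, per the file headers, are reads and RPKM per transcript; the reads are not whole, so they were taken as estimated counts deposited by the authors without scaling. The submitters' processing notes name hg38. Aligner and quantifier: not given in the sources used here. Of the 636 member transcripts, 630 had the same version in GENCODE release 29, from which gene positions and protein lengths come. Names turned into dates were restored in 284 of 285 lines.

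RPKM was summed per gene, with a minimum of 1 RPKM in either library and a pseudocount of 1. Groups of 1 library allow no test, so no p-value is given. The 95% intervals are exact (Clopper-Pearson), from reads rounded to whole numbers and scaled to the listed total. The kit (TruSeq RNA v2) does not mark strand. Named members are the 15 smallest and 8 largest ratios among those of at least 5 RPKM, HSF1, HSF2, the most abundant of each family and those past 1.5-fold, with 6 pathway genes. Others named were chosen after their values were seen, as were the motif searches. The members and lists were chosen with earlier results of these data known. Promoters are from RefSeq (GRCh38.p14). The log2 ratios and intervals were tested on simulated gene reads with known folds. The splitting of reads between transcripts and the motif searches were not. Analyses used Python 3.11.15, pandas 2.3.3, scipy 1.17.1 and edgeR 4.0.16.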

Additional observations from a re-analysis of the deposited data

How the results depend on the processing

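Alternatives were pseudocounts of 0.1 and 3, no filter, a filter at 5 RPKM, median centring, TMM scaling with edgeR, reads scaled to depth only (CPM), the highest transcript, members without the non-chaperones, and HSPA1A and HSPA1B as 1 gene. The number of members at least 1.5-fold lower lay between 5 and 8 under all 10, against 7, and 1 was always higher where counted. At least 2-fold lower were 2 members at a pseudocount of 0.1, where HSPB8 joined, and 0 with HSPA1A and HSPA1B summed. The cytosolic median was -0.15 with CPM, where 76 members were compared, and between -0.07 and -0.04 otherwise. The median of all members was near 0 and took either sign, at -0.02 with CPM and with the highest transcript. Of 319 alternative values of named genes, none reversed and 18 moved by more than their counting interval. No paired analysis was possible because each group has 1 library. HSPA6, HSPA7, HSPB6 and HSPB9 had fewer than 10 reads in either library, too few to compare.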
